A study of Mus musculus with 2 samples.

Results

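The antibody-rich B lineage cells of the atherosclerotic mouse aorta were examined. They are the cells of cluster 4 in the deposited clustering, which carries the deposited name B cells, and they number 623 of the 7613 cells in the deposited cell table. All mice were Apoe-/-, so they lacked apolipoprotein E, the protein that clears cholesterol-rich lipoproteins from blood, and developed atherosclerotic plaques. All mice ate a western diet for 4 weeks, and over the same time they received saline or 30 mg/kg of nt-LNA, an agent whose abbreviation usually stands for a locked nucleic acid oligonucleotide. The arch and thoracic part of the aorta were digested, and cells that carried the leukocyte protein CD45 and lacked the T cell receptor component CD3 were sorted. Their RNA was read with a 10x Chromium 3′ method. There was 1 library per treatment (n = 1). The number, age and sex of the mice behind a library were not given in the sources used here.

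B lineage cells make antibodies from a heavy and a light chain, each built from a variable segment joined to a constant gene. Naive B cells carry IgM and IgD at their surface, whereas plasma cells secrete antibody in bulk, and the J chain joins secreted IgM and IgA into polymers. B-1 cells are a self-renewing B cell population of body cavities and other tissues that makes natural antibodies, some of which bind phospholipids, whereas follicular B cells recirculate through lymphoid organs. Antibodies against oxidised lipids have long been studied in atherosclerosis.

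Cluster 4 was compared with the mean of the other 19 clusters and with the mean of the other clusters deposited as B cells, 1, 2 and 12. Values are unique molecular identifiers (UMIs), 1 per captured RNA molecule, summed over both libraries and scaled to the total UMIs of a cluster (CPM), with exact Poisson 95% intervals in parentheses. These intervals, and all others below, cover counting error only. The clustering used the same transcripts, so the gene levels describe the cluster and no test was made. A gene is called higher or lower when its CPM differed by more than 2-fold, with 0.5 CPM added to both sides. The summed counts do not show how many cells carried a transcript, so a few cells with very many copies and many cells with some cannot be told apart.

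Cluster 4 held 11201 UMIs per cell, against 5925 in cluster 1, 2296 in cluster 2 and 11884 in cluster 12. Ribosomal protein genes took 36.6% of its UMIs, the highest share of the 20 clusters (9.82 to 33.9% in the others), and antibody genes took 5.77% (0.0894 to 2.78% in the others). Mitochondrial genes took 3.53% in cluster 4 but 10.1% in cluster 2. The median log2 ratio over all genes was -0.67 against the other clusters and -0.47 against the B cell clusters (-0.40 and -0.27 with mitochondrial and ribosomal protein genes left out of the total), and the ratios of gene groups are read beside those medians. Against the other clusters, 429 of 14202 genes with at least 20 UMIs were higher and 4712 lower. Scaling by edgeR's trimmed mean of M values gave 861 and 3218, which moved the share of higher genes among those called from 8.34% to 21.1%. Against the B cell clusters, 187 of 10874 genes were higher and 2109 lower, and the same scaling gave 506 and 932, a share of 35.2% in place of 8.14%. In the profile over 14202 genes, cluster 4 was most like cluster 1, with a Pearson correlation of log2(CPM + 1) across genes of 0.963, followed by cluster 12 at 0.947 and cluster 2 at 0.937. The next was cluster 3 at 0.890. Clusters 1, 12 and 2 also ranked in this order by total UMIs and by ribosomal protein share. The part of either in these correlations was not tested.

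The 4 marker genes were each at their highest in cluster 4. Jchain, which encodes the J chain, stood at 2597 CPM (2559 to 2635), against 10.8 CPM in cluster 1, 57.6 CPM in cluster 2 and 10.4 CPM in cluster 12. Igha, the constant gene of IgA, stood at 1820 CPM (1788 to 1852) in cluster 4, against 7.04, 5.89 and 2.69 CPM in clusters 1, 2 and 12. Both are marker genes of this cluster, so these differences describe it and are no test. Mzb1, a chaperone of the endoplasmic reticulum that helps B lineage cells secrete antibody, was shared more evenly, with 918 CPM (895 to 940) in cluster 4, 352 CPM in cluster 1, 687 CPM in cluster 2 and 406 CPM in cluster 12. Derl3, which helps remove misfolded proteins from the endoplasmic reticulum, reached 20.2 CPM (17.0 to 23.8), against 1.88, 4.58 and 2.02 CPM.

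**Figure D1:**
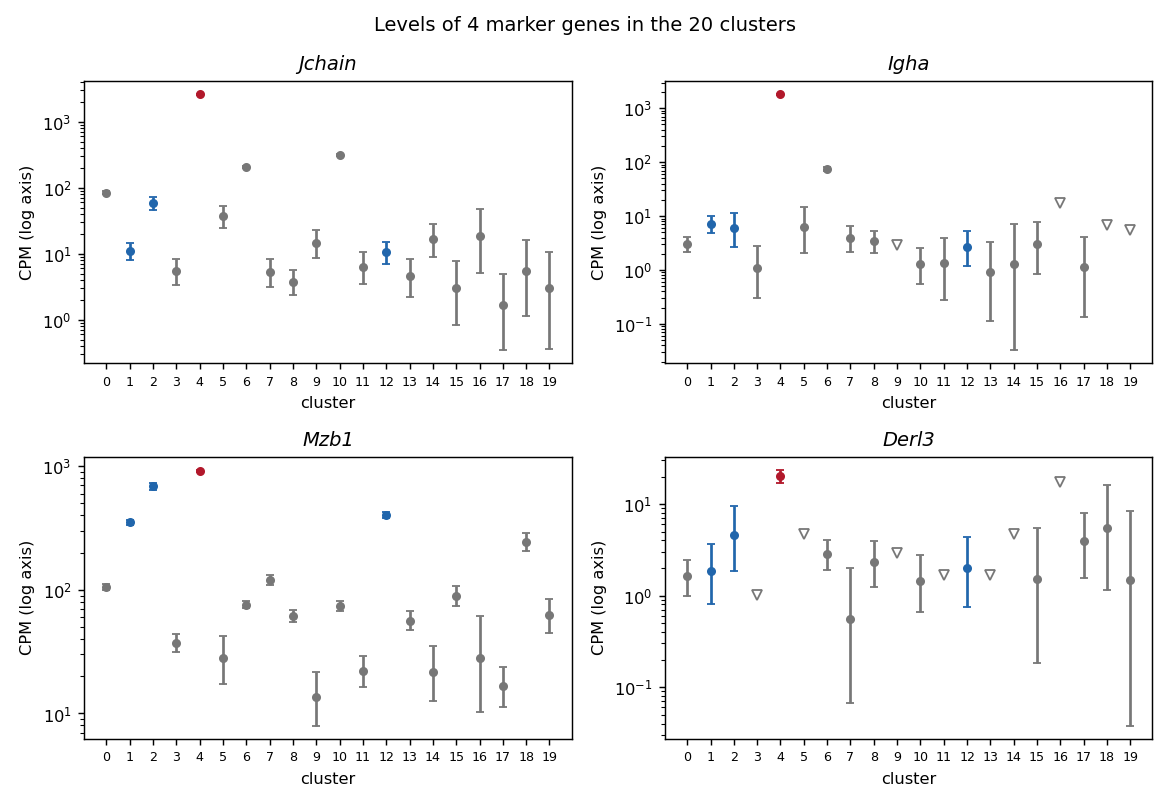
Levels of Jchain, Igha, Mzb1 and Derl3 in CPM (log axis) in each of the 20 clusters, with exact Poisson 95% intervals as bars. Cluster 4 is red, the B cell clusters 1, 2 and 12 are blue, the others grey, and an open triangle marks the upper bound of a cluster with no UMI. Cluster 4 was highest for all 4 genes, and Jchain came next at 312 CPM in cluster 10.

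Of all Igha UMIs in the 20 clusters, 93.1% lay in cluster 4, and of all Jchain UMIs 76.6%. The macrophage cluster 6 held a further 5.81% of Igha UMIs at 74.4 CPM and had 205 CPM of Jchain. Clusters 10 and 0, also deposited as macrophages, had Jchain at 312 and 84.4 CPM with almost no Igha. There were 1.43 Jchain UMIs per Igha UMI in cluster 4, 2.75 in cluster 6, 28.1 in cluster 0 and 243 in cluster 10. Jchain was thus also counted in myeloid clusters. Igkc was counted in each of the 16 clusters that carry other deposited names, from 281 to 3788 CPM, and the part of free RNA in these levels was not tested. Cd3e, a gene of the receptor component selected against in the sort, stood at 10.7 CPM (8.45 to 13.5), the lowest of the 20 clusters. Ptprc, which encodes CD45, was also at its lowest in cluster 4, as was the summed level of the list of 15 T cell genes (302 CPM, against 452 to 22917 CPM in the others). The sample titles speak of macrophages, but the 16 macrophage and monocyte genes summed to 281 CPM in cluster 4. This lay within the 199 to 521 CPM of the B cell clusters and far below the highest cluster at 37554 CPM. Ly6c2 alone gave 193 CPM of that sum, against 13.1, 68.8 and 9.76 CPM in clusters 1, 2 and 12. Of the 14 measured genes 10 were lower than in the B cell clusters, beside 19.4% of all genes. The 10 neutrophil genes (64.8 CPM) and the 10 mast cell and basophil genes (8.74 CPM) also had their lowest sums of the 20 clusters there. The list of NK and innate lymphoid cells summed to 127 CPM, against 44.8, 65.5 and 178 CPM in clusters 1, 2 and 12. Of its 11 measured members Klrb1c, with 19 UMIs, was higher and Gata3 lower than in the B cell clusters, and the part of such cells in these results was not tested.

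The antibody genes showed which classes these cells transcribed. Of 12 measured constant chain and J chain genes, 10 were higher than in the other clusters, where 3.02% of all genes were higher and 33.2% lower. In the comparison with the B cell clusters 7 were higher and 2 lower, where 1.72% of all genes were higher and 19.4% lower. The median log2 ratio of the list was 1.40 against the B cell clusters, beside -0.47 over all genes. Ighm, the constant gene of IgM, was the most abundant heavy chain gene, with 9453 CPM (9381 to 9525), against 2634 CPM in cluster 1, 6633 CPM in cluster 2 and 2500 CPM in cluster 12. Ighd, the constant gene of IgD, went the other way, with 140 CPM (132 to 149) against 791, 770 and 296 CPM. Ighg1 stood at 511 CPM (495 to 528), against 1.17, 7.20 and 16.5 CPM, and Ighg2b at 610 CPM (592 to 629), against 5.40, 23.6 and 1.68 CPM.

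The makeup of the heavy chain RNA does not depend on how the clusters were scaled. In cluster 4, 75.3% of 87556 heavy chain constant UMIs were Ighm, 14.5% Igha (Clopper-Pearson 95% interval 14.3 to 14.7), 9.04% Ighg and 1.12% Ighd. The genes of switched classes, Igha and Ighg together, thus made up 23.5% (23.3 to 23.8), against 0.518% in cluster 1, 1.26% in cluster 2 and 0.907% in cluster 12. Ighd made up 23.0%, 10.3% and 10.5% there. Within the Ighg genes of cluster 4, Ighg2b had 4258 UMIs and Ighg1 3567, but Ighg3 had 87 and Ighg2c 5. Cluster 2 held another mixture, with 58 Ighg3 and 30 Ighg2c UMIs beside 36 of Ighg2b and 11 of Ighg1. No UMI of Ighe, the constant gene of IgE, was found in cluster 4, which allows a share of heavy chain UMIs of up to 0.00421%. The Ighg genes resemble one another, and counting could have split reads between them.

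**Figure D2:**
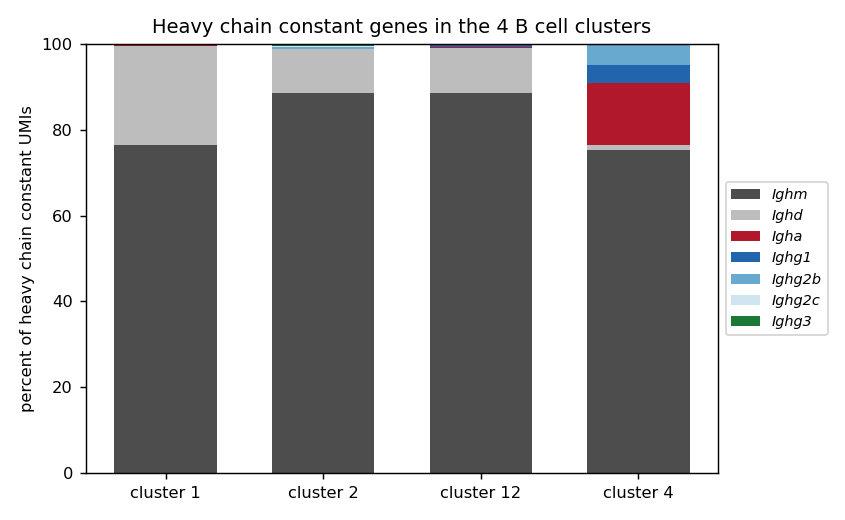
Percent of heavy chain constant UMIs from each gene (stacked bars, 0 to 100%) in the 4 clusters deposited as B cells. Cluster 4 combined the smallest Ighd share (1.12%) with Igha at 14.5%, whereas Igha stayed under 0.205% in clusters 1, 2 and 12.

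Light chain RNA was plentiful. Igkc, the constant gene of the kappa chain, averaged 421 UMIs per cell in cluster 4 and stood at 37591 CPM (37448 to 37736), against 8826, 17213 and 6813 CPM in clusters 1, 2 and 12. Kappa made up 89.2% of light chain constant UMIs in cluster 4, 77.8% in cluster 1, 86.3% in cluster 2 and 76.5% in cluster 12. Among lambda genes the balance also differed. Iglc1 gave 48.4% of lambda constant UMIs in cluster 4, but 24.1%, 34.1% and 34.6% in clusters 1, 2 and 12, and Iglv1 gave 87.9% (85.5 to 90.2) of lambda variable UMIs, against 53.1% in cluster 1, 24 of 48 UMIs in cluster 2 and 52.2% in cluster 12. Some of the lambda constant genes resemble one another. How reads were assigned among them was not tested, so their shares carry that limit.

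Variable segments were counted far less often than constant genes. Reads of a 3′ library come mostly from the end of a transcript, away from its variable segment. Cluster 4 held 595 UMIs of heavy chain segments (Ighv) and 1296 of kappa segments (Igkv). The 4 segments below were among those with the most UMIs or the highest ratio to the B cell clusters, and the last 300 bases of their germline coding sequences are given 5′ to 3′ because they name the antibodies. They were read from GENCODE M21 transcripts on GRCm38, matched by symbol. Ighv11-2 lies on the minus strand at chr12:114048241-114048704, Ighv4-1 on the minus strand at chr12:113948282-113948732, Ighv7-1 on the minus strand at chr12:113896408-113896946 and Igkv14-126 on the plus strand at chr6:67896177-67896642. Each has 2 coding exons. Capitals mark the codons for tyrosine, tyrosine or phenylalanine, and cysteine that end the last framework, after which the third hypervariable loop begins.
Ighv11-2: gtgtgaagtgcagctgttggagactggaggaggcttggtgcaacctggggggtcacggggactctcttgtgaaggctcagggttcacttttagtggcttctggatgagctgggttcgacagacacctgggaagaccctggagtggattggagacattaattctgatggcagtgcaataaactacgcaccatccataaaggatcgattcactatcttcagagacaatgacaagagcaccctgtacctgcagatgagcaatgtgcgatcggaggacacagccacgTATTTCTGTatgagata
Igkv14-126: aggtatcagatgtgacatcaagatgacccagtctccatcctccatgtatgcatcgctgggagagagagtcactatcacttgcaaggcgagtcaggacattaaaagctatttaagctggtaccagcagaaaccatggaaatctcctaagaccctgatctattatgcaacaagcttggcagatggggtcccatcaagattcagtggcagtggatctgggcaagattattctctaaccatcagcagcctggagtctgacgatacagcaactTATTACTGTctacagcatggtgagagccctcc
Ighv7-1: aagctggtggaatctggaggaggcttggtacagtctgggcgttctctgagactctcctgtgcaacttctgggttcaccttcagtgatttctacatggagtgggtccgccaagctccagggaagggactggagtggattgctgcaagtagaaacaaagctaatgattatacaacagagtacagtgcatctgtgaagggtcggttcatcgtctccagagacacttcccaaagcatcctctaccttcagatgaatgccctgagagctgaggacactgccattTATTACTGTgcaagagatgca
Ighv4-1: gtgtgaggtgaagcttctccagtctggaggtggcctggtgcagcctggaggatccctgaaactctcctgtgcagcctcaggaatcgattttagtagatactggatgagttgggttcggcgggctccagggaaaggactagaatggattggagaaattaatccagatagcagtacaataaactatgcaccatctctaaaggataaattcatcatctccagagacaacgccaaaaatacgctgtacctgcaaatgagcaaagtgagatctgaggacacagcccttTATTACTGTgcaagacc
Ighv11-2 and Ighv4-1 share 76.2% of their aligned coding bases, the part not shown included, and Ighv7-1 shares 67.5% and 67.9% with them. As background, Ighv11-2 paired with Igkv14-126, and Ighv12-3 paired with Igkv4-91, form the antibodies against phosphatidylcholine that are typical of mouse B-1 cells. Ighv7-1 paired with Igkv7-33 forms the natural antibody against phosphorylcholine, which also binds oxidised phospholipids. Which heavy and light segments shared a cell is not shown by summed counts.

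Heavy chain segment UMIs were concentrated. How many cells gave the UMIs of a segment is not known, and the intervals treat UMIs as independent, so a few cells rich in antibody RNA could weigh heavily. Ighv4-1 alone gave 116 of 595 UMIs in cluster 4, 19.5% (16.4 to 22.9), against 11 of 545 UMIs, 2.02% (1.01 to 3.58), in clusters 1, 2 and 12 together. Ighv1-55 followed with 11.1% (8.68 to 13.9), against 2.57% (1.41 to 4.27). Ighv11-2 gave 60 UMIs, 10.1% (7.78 to 12.8), against 2 UMIs in the B cell clusters. Ighv7-1 gave 31 UMIs, 5.21% (3.57 to 7.31), and was not detected in clusters 1, 2 and 12, which allows a share of up to 0.675% there. Only 1 further UMI of it was found in the 16 remaining clusters. Ighv12-3, named after its values were seen, gave 22 UMIs in cluster 4 and 1 in the B cell clusters. The effective number of heavy chain segments is 1 divided by the sum of their squared shares (the inverse Simpson index). It was 12.2 in cluster 4 and 42.6, 33.8 and 27.8 in clusters 1, 2 and 12, although cluster 4 had the most UMIs to count.

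Kappa segments were less concentrated, with an effective number of 18.8 in cluster 4 and 27.2, 27.2 and 27.7 in clusters 1, 2 and 12. Igkv1-117 was the most frequent, with 10.3% (8.73 to 12.1) of Igkv UMIs, and its share in the B cell clusters of 7.56% (5.52 to 10.0) overlapped with this. Other segments stood apart. Igkv14-126 gave 104 UMIs, 8.02% (6.60 to 9.64), against 2 UMIs in the B cell clusters and 0 in the 16 remaining clusters. Igkv5-45 gave 95 UMIs, 7.33% (5.97 to 8.89), against 2 in the B cell clusters, but 27 lay in the 16 remaining clusters. Igkv8-21 gave 53 UMIs against 1 in the B cell clusters and 1 elsewhere. Igkv12-44 was rarer in cluster 4, with 1.77% (1.13 to 2.65) against 7.73% (5.67 to 10.2). Of the partner segments named after their values were seen, Igkv4-91 had 5 UMIs in cluster 4 and Igkv7-33 had 0 in all 20 clusters.

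**Figure D3:**
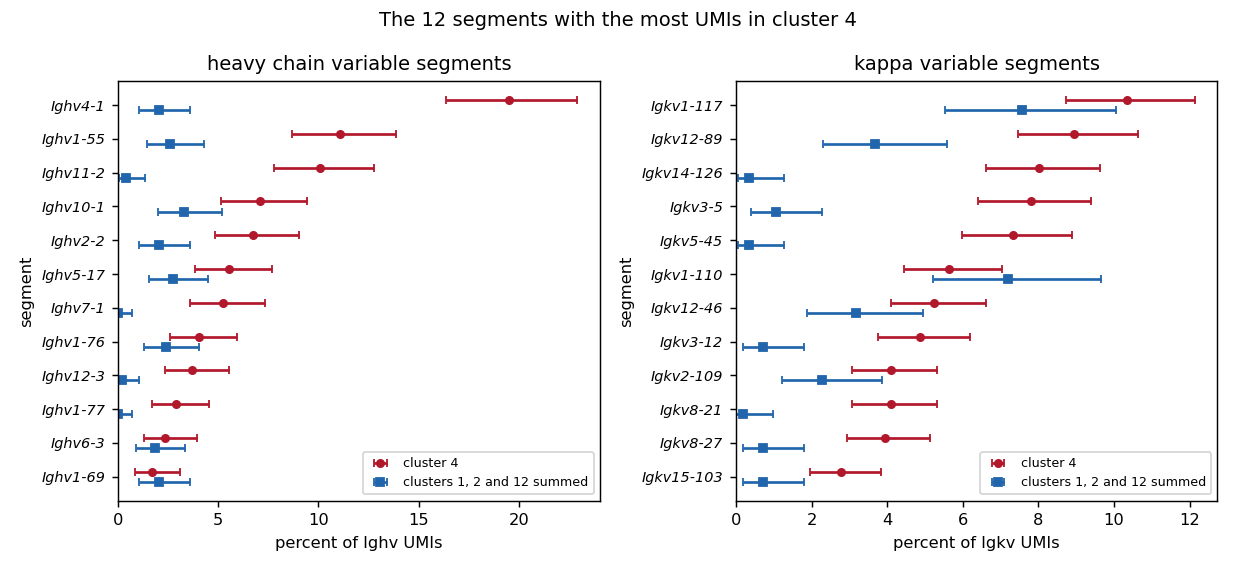
Percent of Ighv UMIs (left) and Igkv UMIs (right) from the 12 segments with the most UMIs in cluster 4, for cluster 4 (red) and for clusters 1, 2 and 12 summed (blue), with Clopper-Pearson 95% intervals. Ighv4-1 gave 19.5% in cluster 4 and 2.02% in the B cell clusters, whereas the intervals of Igkv1-117 and Igkv1-110 overlapped.

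Genes of B cell identity were well expressed. Of 20 such genes, 11 were higher and 1 lower than in the other clusters, where 3.02% of all genes were higher and 33.2% lower. Their median log2 ratio was 1.14, beside -0.67 over all genes. None was higher than in the B cell clusters and 4 were lower (Pax5, Ebf1, Cd22 and Cd72), near the 19.4% of all genes that were lower. The median of -0.59 lay near the -0.47 of all genes. Against clusters 1, 2 and 12 alone, 5, 14 and 1 of the 20 were lower, where 7.25%, 34.4% and 18.4% of all genes were. Cd79a, a signalling chain of the B cell receptor, stood at 2248 CPM in cluster 4, against 3376, 5662 and 2309 CPM in clusters 1, 2 and 12. Ms4a1, which encodes CD20, stood at 902 CPM (879 to 924), against 1027, 2232 and 821 CPM. Cluster 4 thus sat close to cluster 12 and below cluster 2 for these surface genes. Pax5, the transcription factor that maintains B cell identity and is silenced in plasma cells, was detected at 115 CPM (107 to 123), against 316, 289 and 139 CPM. Blk, a B cell receptor kinase, and Pou2af1, a coactivator of antibody genes, were at their highest of the 20 clusters in cluster 4, at 150 and 216 CPM.

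Plasma cell genes were higher only in part. Compared with the B cell clusters, 5 of 18 measured members were higher and 3 lower, with a median log2 ratio of 0.56. Over all genes 1.72% were higher and 19.4% lower. With cluster 1 alone as the reference (5.8% and 7.25% of all genes), 10 were higher and 1 lower. With cluster 12 alone (2.58% and 18.4%), 9 were higher and 1 lower. With cluster 2 alone (7.15% and 34.4%), 3 were higher and 4 lower, with a median of -0.18 beside -0.64 over all genes. Prdm1, which encodes the plasma cell regulator BLIMP1, stood at 39.8 CPM (35.3 to 44.8), against 3.05 CPM in cluster 1, 33.4 CPM in cluster 2 and 18.2 CPM in cluster 12. Its interval overlapped that of cluster 2 (24.9 to 43.9). Tnfrsf17, which encodes BCMA, a survival receptor of plasma cells, had 68 UMIs in cluster 4 and 1 in clusters 1, 2 and 12 together, and Eaf2, a transcription elongation factor, stood at 45.6 CPM (40.7 to 50.9), against 12.7, 15.7 and 12.8 CPM. Xbp1, the driver of the secretory programme, reached 117 CPM (109 to 125), above the 40.1, 78.6 and 57.9 CPM of the B cell clusters, yet only the eleventh highest of the 20 clusters. Sdc1, which encodes the plasma cell surface protein CD138, had 9.46 CPM (7.32 to 12), against 4.93, 7.20 and 2.36 CPM, and its highest level was 23.3 CPM, in cluster 10. Irf4, needed for plasma cell formation, had 47.0 CPM, against 76.5, 72.0 and 47.5 CPM.

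The secretory pathway and unfolded protein response list had 3 of 48 members higher than in the B cell clusters and none lower. Among all genes 1.72% were higher and 19.4% lower. The median log2 ratio of the list was -0.09, beside -0.47 over all genes. The higher members were Derl3, Creld2 and the disulfide isomerase Txndc5, which stood at 203 CPM (193 to 214), against 66.4, 126 and 69.3 CPM. Hspa5, the main chaperone of the endoplasmic reticulum, was no higher, at 359 CPM against 346, 754 and 310 CPM. With cluster 1 alone as the reference, where 5.8% of all genes were higher and 7.25% lower, 11 of 48 were higher and 1 lower. With cluster 2 alone, where 7.15% of all genes were higher and 34.4% lower, 3 were higher and 10 lower. With cluster 12 alone, where 2.58% of all genes were higher and 18.4% lower, 8 were higher and 2 lower.

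The B-1 cell list had a summed level of 9781 CPM in cluster 4, followed by 9150 CPM in cluster 10 and 8357 CPM in cluster 2. Against the other clusters (3.02% of all genes higher and 33.2% lower) 10 of 26 members were higher and 7 lower. Cd5, Spn and Itgam were among the lower ones. In the narrower comparison 7 of 25 measured members were higher and 2 lower than in the B cell clusters (1.72% and 19.4% of all genes). The median log2 ratio was 0.40, beside -0.47 over all genes. Bhlhe41, a transcription factor required for B-1 cells, stood at 117 CPM (109 to 125), against 15 CPM in cluster 1, 75.3 CPM in cluster 2 and 39.7 CPM in cluster 12. Zbtb32, a transcription factor that restrains antibody responses, stood at 81.0 CPM (74.4 to 87.9), against 4.93, 51.7 and 24.2 CPM. For both genes cluster 1 was lowest and cluster 2 came closest. Zcwpw1, a reader of histone methylation, reached 226 CPM (215 to 237), against 10.1, 52.4 and 65 CPM. Ctla4, an inhibitory receptor also found on B-1 cells, had 129 CPM (121 to 138), close to the 131 CPM (113 to 150) of cluster 2, with 4.46 CPM in cluster 1. Il5ra, the receptor for a growth factor of B-1 cells, had 68.1 CPM in cluster 4, against 14.3, 124 and 34.3 CPM. Cd5, the surface marker that divides B-1a from B-1b cells, had 4.73 CPM (3.26 to 6.64) in cluster 4, against 5.87, 11.1 and 43.8 CPM, and it is also a T cell gene.

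The comparison with each B cell cluster separated these gene groups. Against cluster 1, 20 of 25 B-1 cell genes were higher and 2 lower, with a median log2 ratio of 2.21 beside -0.20 over all genes. Against cluster 2, 6 were higher and 6 lower, with a median of -0.61 beside -0.64 over all genes. Against cluster 12, where 2.58% of all genes were higher and 18.4% lower, 8 were higher and 2 lower, with a median of 0.74 beside -0.42. Cluster 2 thus had B-1 cell genes at levels near those of cluster 4 but not its Igha, Ighg1 or Jchain. Cluster 2 also had the fewest UMIs per cell of the 4 clusters and the highest mitochondrial share, and the part these play in its levels was not tested.

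Follicular B cell genes were lower. None of 14 was higher than in the B cell clusters and 10 were lower, where 1.72% of all genes were higher and 19.4% lower. The median log2 ratio was -1.37, beside -0.47 over all genes. Fcer2a, which encodes the IgE receptor CD23 of follicular cells, stood at 40.1 CPM (35.6 to 45.1), against 319, 337 and 121 CPM. Cr2, the complement receptor CD21, stood at 14.9 CPM (12.2 to 18.1), against 155, 178 and 56.5 CPM. Ccr7, a chemokine receptor that guides cells into lymph nodes, stood at 144 CPM (136 to 154), against 447, 524 and 206 CPM. Klf2, a regulator of recirculation, was an exception on this list, with the highest level of the 20 clusters (1487 CPM, against 1315 CPM in cluster 1). With cluster 12 alone as the reference 4 of 14 were lower, beside 18.4% of all genes. The median log2 ratio of -0.50 was near the -0.42 of all genes.

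**Figure D4:**
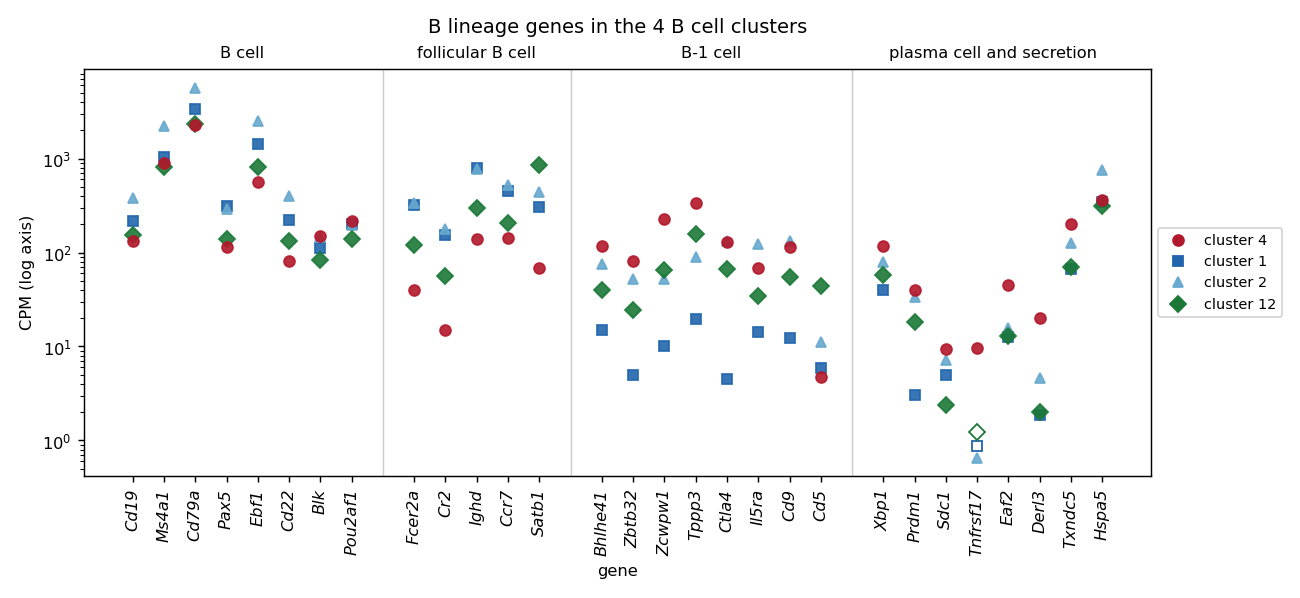
Levels in CPM (log axis) of genes of B cell identity, follicular B cells, B-1 cells, and plasma cells and secretion in clusters 4 (red circles), 1, 2 and 12 (blue and green). Open symbols mark the upper bound where no UMI was counted. The genes are a selection from longer lists. The follicular genes shown were all called lower than in the B cell clusters, and Cxcr5, Klf2, S1pr1 and Foxp1, which were not, are left out. Of the B-1 genes called lower there, Cd5 is shown and Bhlhe40 is left out. Cluster 4 lay lowest for Fcer2a, Cr2 and Ighd and highest for Bhlhe41, Zbtb32 and Zcwpw1, and it stood close to cluster 2 for Ctla4.

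The leading genes that are not antibody genes came from several functions. Of the 429 genes higher than in the other clusters, 48 were antibody genes and 174 had their highest level of all clusters in cluster 4. More than 2-fold above clusters 1, 2 and 12 were 256, 149 and 194 respectively. Among all genes measured in the B cell clusters the shares were 5.8%, 7.15% and 2.58%. The 429 genes were chosen for high levels in cluster 4, so these counts follow in part from that choice. Prg2, best known as the major basic protein of eosinophil granules, had 82 UMIs in cluster 4 and 1 in the B cell clusters. Krt8 and Krt18, partner keratins of simple epithelia, stood at 39.1 CPM (34.6 to 44.0) and 19.5 CPM (16.4 to 23.1), and cluster 1 had no UMI of either. Krt8 had 37 UMIs in cluster 12 and 8 in cluster 2. Oosp1, named as an oocyte secreted protein, stood at 48.7 CPM (43.7 to 54.2) in cluster 4 and 26.2 CPM (18.7 to 35.7) in cluster 2, and its neighbour in name Oosp2 had 57 UMIs against 10 in the B cell clusters. Ahnak2, a large scaffold protein, was as high in cluster 2 (96.9 CPM, 81.9 to 114) as in cluster 4 (84.1 CPM, 77.5 to 91.2).

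Against the B cell clusters alone, Slpi, a secreted inhibitor of leukocyte proteases, stood out at 245 CPM (233 to 257), against 8.92, 11.8 and 6.06 CPM. It is also a neutrophil gene, but its highest level was 11043 CPM in cluster 19. That cluster is deposited as macrophages and had the highest sum of the macrophage and monocyte list (37554 CPM). The neutrophil list had its highest sum in cluster 7. S100a8, the most abundant gene of the neutrophil list, had 31.1 CPM in cluster 4 and 49.5, 109 and 47.5 CPM in the B cell clusters. The source of the Slpi RNA was not tested. Ly6c2, a surface protein of monocytes and also of plasma cells, stood at 193 CPM (183 to 203), against 13.1, 68.8 and 9.76 CPM. In the macrophage list of 14 measured genes it was the only member that was higher, and 10 were lower (1.72% and 19.4% of all genes). Lyz2 was among the lower ones at 36 CPM, the lowest of the 20 clusters. Cacna1s, a calcium channel subunit of skeletal muscle, stood at 55.2 CPM (49.8 to 61.0), against 7.51, 11.8 and 14.8 CPM.

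Several of the genes lowest against the B cell clusters were T cell or mast cell genes with high levels in cluster 12. Cd4 had 4.16 CPM in cluster 4 and 171 CPM in cluster 12, Cd8b1 22.9 and 920 CPM, and the recombinase gene Rag1 12.5 and 494 CPM. All 15 genes of the T cell list were lower than in the B cell clusters, where 19.4% of all genes were. Against cluster 2 alone (34.4% of all genes) 13 of 15 were lower. Against cluster 1 alone (7.25%) 2 of 15 were, Cd3d and Cd4. In cluster 1 Cd4 had 10.6 CPM, Cd8b1 33.3 CPM and Rag1 21.4 CPM. The mast cell protease Mcpt4 had 1 UMI in cluster 4 and 238 in cluster 12, whereas Mcpt2, another protease of that family, had 145 UMIs in cluster 1 and 1 in cluster 12. Over all genes, leaving out cluster 12 gave 2140 lower genes in place of 2109.

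Lists of function divided as follows against the B cell clusters, where 1.72% of all genes were higher and 19.4% lower. Of 14 class II antigen presentation genes none was higher and 5 were lower, with a median log2 ratio of -0.79. The lower calls depended on the reference, with 5 lower against cluster 1 alone (7.25% of all genes) and 12 against cluster 2 alone (34.4%). Against cluster 12 alone none was lower and 1 was higher, with a median of -0.012 beside -0.42 over all genes. Ciita, the regulator of class II genes, stood at 57.2 CPM against 203, 260 and 100 CPM. Of 19 cell cycle genes none was higher and 12 were lower, and the summed level of the list was the lowest of the 20 clusters. Mki67, a proliferation marker, stood at 8.17 CPM (6.19 to 10.6), against 6.81 CPM in cluster 1, 13.8 CPM in cluster 2 and 60.9 CPM in cluster 12, so the lower call rested on cluster 12. Of 22 homing genes 8 were lower and 1, Ccr10, was higher. Against cluster 1 alone (5.8% of all genes higher and 7.25% lower) 5 were higher and 5 lower. Against cluster 2 alone (7.15% and 34.4%) 1 was higher and 12 were lower, and against cluster 12 alone (2.58% and 18.4%) 2 and 4. Ccr10, a chemokine receptor of IgA-secreting cells, had 42 UMIs in cluster 4 and 2 in the B cell clusters. Cxcr4, which holds plasma cells in bone marrow, stood at 154 CPM, against 418, 690 and 245 CPM.

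Il10, which encodes an anti-inflammatory cytokine made by B-1 cells among others, was the only one of 13 measured cytokine genes that was higher, and 3 were lower. Its level was 17.6 CPM (14.6 to 21), against 0.704, 8.51 and 3.70 CPM in clusters 1, 2 and 12, and it reached 64.0 CPM in cluster 15. Of 13 amino acid and integrated stress genes 4 were higher and 2 lower. Phgdh, the first enzyme of serine synthesis, stood at 173 CPM (163 to 183), against 56.3, 60.3 and 84.8 CPM, and Asns, which makes asparagine, had 43 UMIs against 6 in the B cell clusters. Germinal centre genes had 5 of 8 members lower and none higher. The counts of these lists stand beside 1.72% of all genes higher and 19.4% lower.

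Cells of cluster 4 were more frequent in the nt-LNA library. They made up 170 of 2742 cells (6.2%, 5.33 to 7.17) in the saline library and 453 of 4871 cells (9.30%, 8.50 to 10.2) in the nt-LNA library, a ratio of 1.5 with an exact conditional 95% interval of 1.25 to 1.80. Among the cells deposited as B cells the shares were 23.1% (20.1 to 26.3) and 29.8% (27.5 to 32.2), a ratio of 1.29 (1.08 to 1.55). In the same denominator cluster 1 had a ratio of 0.516 (0.444 to 0.599), cluster 2 of 1.58 (1.32 to 1.90) and cluster 12 of 1.47 (1.10 to 1.99). Without clusters 2, 5, 14 and 16, which have the highest mitochondrial shares, the ratio of cluster 4 was 1.76 (1.47 to 2.11). With 1 library per treatment, the treatment and differences between mice, dissections or sorts cannot be told apart. The libraries shared 2 cell barcodes, none of them in cluster 4. Because counts were pooled over both libraries, gene levels of cluster 4 by treatment are not analysed here.

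**Figure D5:**
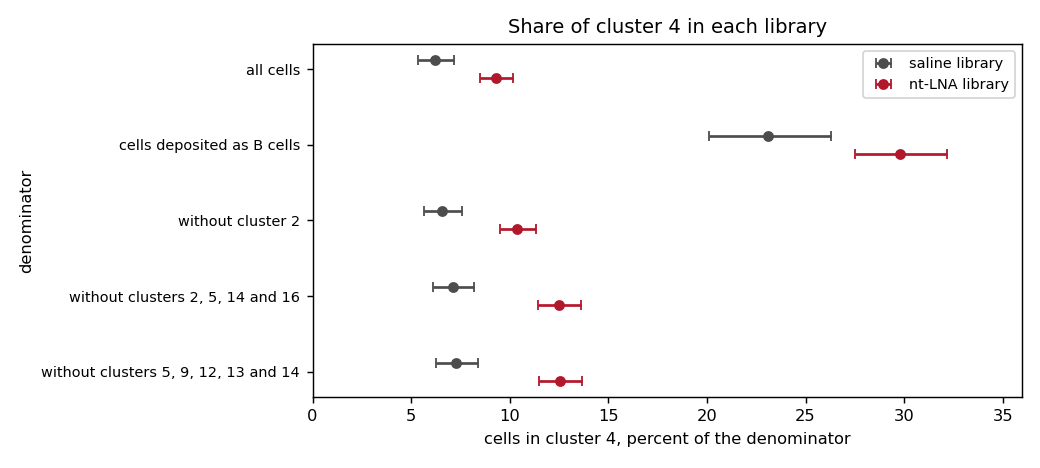
Percent of cells in cluster 4 in the saline (grey) and nt-LNA (red) libraries under 5 denominators, with Clopper-Pearson 95% intervals that cover counting error only. The nt-LNA share lay above the saline share in each, from ratios of 1.29 among B cells to 1.76 without clusters 2, 5, 14 and 16.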

How the data were processed

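Each treatment, saline and nt-LNA, has 1 library of single-cell 3′ RNA. The submitters' processing notes name Cell Ranger 2.1.1, Seurat and the build mm9. How cells were filtered and clustered, and whether doublets were removed, was not given in the sources used here. Doublets were not called here either, because counts of single cells were not used. The deposited counts are whole-number UMIs per gene, summed by the authors per cluster (20 clusters, both libraries together). A deposited table gives each cell's cluster, and its library was read from the start of the cell name. Tallies from it equalled the deposited counts of cells (largest difference 0).

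From the counts, CPM was computed with all UMIs of a cluster as the total. The total of cluster 4 is 6977980 UMIs, so 1 UMI is worth 0.143 CPM. Log2 ratios compare cluster 4 with the mean CPM of the other 19 clusters or of clusters 1, 2 and 12, with 0.5 CPM added, over genes with at least 20 UMIs, and calls are more than 2-fold. Ratios against 3 or fewer reference UMIs are given as counts. Gene symbols are those of the deposited table, and sequences come from GENCODE M21 on GRCm38, another build than that of the counts. Shares carry Clopper-Pearson, ratios of shares exact conditional and CPM exact Poisson 95% intervals. With 1 library per treatment and pooled counts, no p-value was computed.

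The members and the 30 gene lists were chosen with earlier results of these data known. Named genes are the markers, the 15 non-antibody genes highest against the other clusters and the 15 highest against the B cell clusters (at least 50 UMIs in cluster 4). They include the 15 lowest against the B cell clusters (at least 50 UMIs in the 4 clusters) and every antibody constant gene. Also named are the 10 variable segments with the most UMIs, the 10 with the highest ratio, Ptprc, Cd3e and members of lists counted whole. Other variable segments plotted or named were chosen by their UMIs in cluster 4 or after their values were seen.

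Alternatives changed the total (without antibody genes, or without mitochondrial and ribosomal genes), the scaling (edgeR 4.0.16, DESeq2 1.42.0), the reference, the UMI minimum and the pseudocount. Calculations used Python 3.11.15, numpy 2.4.6, pandas 2.3.3, scipy 1.17.1, matplotlib 3.10.9 and R 4.3.3, and were tested on simulated counts.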

Additional observations from a re-analysis of the deposited data

How the results depend on the processing

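The share ratio of cluster 4 stayed above 1 in all 5 denominators, from 1.29 to 1.76. Counts of called genes moved with the scaling and the reference. Against the other clusters, higher genes numbered 669 without mitochondrial and ribosomal genes in the total, 861 under edgeR's scaling, 816 under DESeq2's, 822 (with 2398 lower) against the median cluster and 204 (2111 lower) with 5 CPM added. Against the B cell clusters, higher and lower genes numbered 326 and 1344 without mitochondrial and ribosomal genes, 506 and 932 under edgeR's scaling, 545 and 878 under DESeq2's, 98 and 1365 at a minimum of 100 UMIs, 77 and 804 with 5 CPM added, 631 and 788 against cluster 1 alone and 347 and 1398 without cluster 2. They numbered 777 and 3740 against cluster 2 alone and, for higher genes, 281 against cluster 12 alone, 2 references chosen after seeing the data, and 284 against the median. Lists with a median above 0 numbered 7 against the other clusters and 6 against the B cell clusters, and 11 under edgeR's and DESeq2's scaling and 10 against cluster 1 alone respectively.

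Of 113 gene ratios over 2-fold, 8 of 1556 alternative values changed sign. Slpi against the other clusters had log2 ratios of 0.056 with summed counts and 4.70 with the median, and Vpreb3 0.70 with the median. Against the B cell clusters Ighg2c, with 5 UMIs, had 0.015 with the median or with cluster 1 alone, 0.25 without cluster 2 and 0.54 with cluster 12 alone, and Mki67 had 0.25 with cluster 1 alone. The list of red cell and platelet genes had a median of 0.083 with cluster 12 alone. The cause of these shifts was not tested, apart from fewer genes at the higher minimum. No paired analysis was possible because each treatment has 1 library and no result comes from a test. Depth limits the variable segments, at 595 and 1296 UMIs, and genes with few UMIs such as Ccr10, and an interval says nothing of variation between mice.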

Other observations

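Survival receptors of B lineage cells other than Tnfrsf17 were not higher in cluster 4 than in the B cell clusters. Tnfrsf13b, which encodes the receptor TACI, stood at 129 CPM (120 to 137), against 137, 111 and 103 CPM in clusters 1, 2 and 12, and Tnfrsf13c, which encodes the BAFF receptor of resting B cells, stood at 76.7 CPM (70.3 to 83.5), against 189, 141 and 84.8 CPM. Of the 15 measured genes of that list 1 was higher and 6 were lower than in the B cell clusters. Over all genes 1.72% were higher and 19.4% lower in that comparison, and the lists below are read beside those shares. Receptors for nucleic acids were near the level of the other B cells, with none of 18 measured genes higher and 3 lower. Tlr7, which senses single-stranded RNA, stood at 29.1 CPM (25.2 to 33.4), against 21.6, 40.6 and 22.9 CPM, and Tlr9, which senses DNA, had 7 UMIs. Of 20 type I interferon response genes none was higher and 5 were lower than in the B cell clusters, and the median log2 ratio of -0.56 was near the -0.47 of all genes. The B cell receptor signalling list had 4 of 20 members lower and none higher, and the median of -0.62 was also close to that of all genes. Glycolysis genes had a median of 0.09, with 1 of 15 lower. The list of age-associated B cells had 2 of 9 measured members lower and none higher than in the B cell clusters, near the shares of all genes. Its median log2 ratio was -0.001 beside the -0.47 of all genes. Against cluster 1 alone (5.8% of all genes higher and 7.25% lower) 5 were higher and 1 was lower, with a median of 1.07 beside -0.20. Against cluster 2 alone (7.15% and 34.4%) none was higher and 5 were lower, with a median of -1.10 beside -0.64. Of 13 measured marginal zone genes 4 were lower than in the B cell clusters, among them Cr2 and Cd1d1, which encodes a lipid-presenting molecule and stood at 8.89 CPM (6.81 to 11.4), against 20.2, 15.7 and 34.3 CPM. Of 9 measured early B cell genes 8 were lower, and Vpreb3, a surrogate light chain gene, stood at 21.2 CPM (17.9 to 24.9), against 299, 175 and 95.9 CPM.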
